A study of Mus musculus with 16 samples.

Results

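The transcriptome of the unstressed control heart was described from 4 of the 16 samples of the series, the apex (lower tip) of the hearts of 4 mice labelled with the genotype AAV9-cTNT-GFP and the treatment Sham. These 4 were all of the samples that carry both labels, and the labels alone define the group. The choice of this group and of the gene lists was made with earlier results of these data known. The mice were males that had received AAV9-cTNT-GFP subcutaneously on postnatal day 1, underwent a sham operation as adults at 25 to 30 g of body weight, and gave their hearts 4 weeks later. AAV9 is a viral vector that reaches the heart, and cTNT is the cardiac troponin T promoter, which restricts the transgene to cardiomyocytes. The transgene here was green fluorescent protein, the control cargo of a study in which the other mice received the long noncoding RNA Cardinal, pressure overload of the left ventricle, or both. Every mouse described below therefore carried viral vector DNA and had been operated on, so the group is a control for those interventions and not an untouched heart. GFP had 0 rows in the table, so the level of the transgene could not be read. The mice are numbered 1 to 4 as in the labels, and the numbers are names only.

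The adult ventricle is built mostly from cardiomyocytes, large cells filled with sarcomeres and mitochondria. In the sarcomere, myosin motors of the thick filament pull on actin of the thin filament when calcium binds the troponin complex. The calcium is released by ryanodine receptors and pumped back by SERCA2a, the product of Atp2a2. The energy comes mainly from oxidation of fatty acids in mitochondria, and many contractile and metabolic proteins exist in fetal, skeletal muscle and cardiac forms encoded by separate genes, of which the adult mouse heart uses a characteristic set. Fibroblasts, endothelium, mural cells and macrophages make up most of the other cells.

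Each library held between 21525012 and 21802344 counted reads, and 3 counts, the limit used here for detection, corresponded to between 0.135 and 0.1405 CPM (counts scaled to a common library size by edgeR's TMM method). Intervals and floors of this kind cover counting error only. Levels of the same gene in different mice are given as CPM, and levels of different genes only as TPM, in which the count was divided by the length of the gene's annotated exons and then scaled to the same sum in every library. The 4 libraries are separate samples by their labels, and no pair was as alike as a library deposited again would be (chi-square per gene 5.30 to 16.5). Pearson's r across genes on the log2 scale was between 0.987 and 0.993. Mice 1 and 4 stood farthest apart, with 310 genes at least 2-fold different, and mice 2 and 3 were closest, with 109. The labels do not say whether the 4 samples were processed on separate days.

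A small number of genes carried much of the sequencing. In mice 1 to 4, 25, 24, 23 and 25 genes held 50% of all counts, and 3405 ± 60.8 (SD, n = 4) genes held 90%. At least 3 counts in all 4 mice were found for 17731 of 55573 listed genes, including 13248 of 21980 protein-coding genes and 434 of 5849 lincRNA genes, and 29138 genes were at 0 in all 4 mice. The mean level reached 1 TPM for 12998 genes, 100 TPM for 354 and 1000 TPM for 57. The TPM scale covers all genes. Mitochondrial genes took 505316 ± 5984 TPM of it in sum and their nuclear copies 263492 ± 856. All TPM of other genes given here are therefore lower than on a scale without these. The concentration lay mostly in the mitochondrial genes and their nuclear copies described next, since 187 to 206 genes held 50% of the counts without the former and 505 to 517 without both.

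The leading group were the 37 genes of the mitochondrial genome, which encode core subunits of the respiratory chain and the RNAs needed to translate them. They held 32.8%, 33.4%, 34.0% and 33.0% of the counts of mice 1 to 4, a mean of 33.3% ± 0.547. The highest single gene was mt-Co1, the catalytic subunit of cytochrome c oxidase, with 8.28% ± 0.173 of all counts, followed by mt-Cytb of complex III with 4.53% ± 0.171 and mt-Nd4 of complex I with 3.46% ± 0.232. The 13 mitochondrial mRNAs together took 32.2% ± 0.654 and the 22 tRNAs 0.246% ± 0.0304. The pair of mitochondrial ribosomal RNAs varied far more, with 0.580%, 0.660%, 0.850% and 1.35% in mice 1 to 4. Mouse 4 was the highest and mouse 1 the lowest for both of them, mt-Rnr1 and mt-Rnr2.

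A further 13.8% ± 0.277 of the counts lay in 10 pseudogenes on chromosomes 1 and 2 that carry copies of mitochondrial sequence. For mt-Co3, 99.9% of all 50-base windows, the length of a read, occur also in its copy Gm28437, and the copy had 100.4% as many counts as the gene. For mt-Atp6 and Gm10925 the same values were 99.5% and 101.6%. By contrast mt-Nd1, mt-Nd6 and mt-Cytb share no window with another annotated gene. How reads with several matches were counted is not given in the sources used here, so counts of the copies and of their mitochondrial partners cannot be told apart. The share of the mitochondrial genes among counts outside the copies was 38.6%. With the copies counted as mitochondrial, the share of all counts would be larger than that.

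Genes of the sarcomere came next by share of counts. Such a share grows with the length and the number of the genes in a list, so its order is not an order of level. The 26 genes listed for it held 6.41%, 6.45%, 6.21% and 6.63% of all counts in mice 1 to 4, or 12.1% of the counts left after the mitochondrial genes and their copies were set aside. The 86 listed nuclear genes of the respiratory chain held 2.66% ± 0.0333, calcium handling genes 1.84% ± 0.104, and fatty acid uptake and oxidation 1.61% ± 0.0545. The TCA cycle with pyruvate dehydrogenase held 1.44% ± 0.0105. A list of 7 genes for oxygen and energy transfer (Mb, Ckm, Ckmt2, Ak1, Cycs, Slc25a4 and Slc25a3) held 1.29% ± 0.0427. Glycolysis took 0.563% ± 0.0145, a lower share than fatty acid oxidation in every mouse. The 83 ribosomal protein genes took 0.533% ± 0.00867 and collagens with other matrix genes 0.170%. Summed TPM, in which length is divided out, put ribosomal protein genes (4571) above glycolysis (3008). Fatty acid uptake and oxidation (6978) was above both. The nuclear respiratory chain, at 20664 TPM, was closer to the sarcomere, at 24107, than by share of counts. Interferon-stimulated genes held 0.0177% ± 0.00112 and the cell cycle list 0.00269% ± 0.000840, so that antiviral and proliferation genes were near the bottom of the groups measured.

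**Figure D1:**
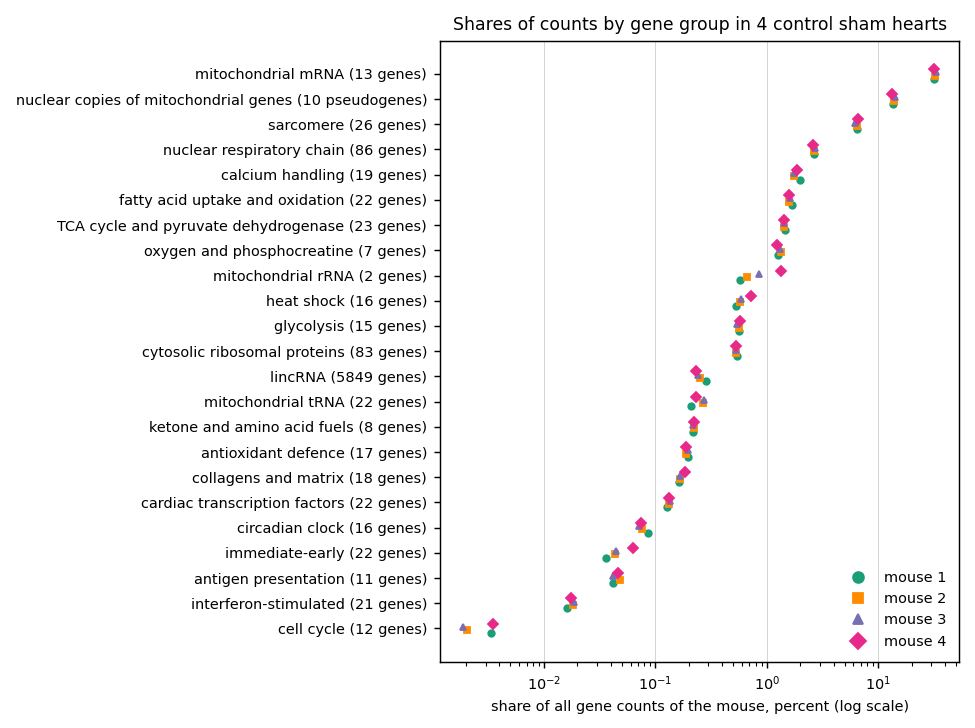
Share of all counts (percent, log axis) held by each listed gene group, with a point for each of the 4 mice. The 13 mitochondrial mRNAs sit near 32.2% and the 10 nuclear copies near 13.8%, while sarcomere genes lie between 6.21% and 6.63%. Points of the 4 mice nearly coincide for most groups, and mitochondrial rRNA is spread from 0.580% to 1.35%.

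Per length, the most abundant nuclear transcript was Mb, which encodes the oxygen carrier myoglobin, with 5699 ± 216 TPM. Cardiac actin (Actc1) followed with 5274, 5388, 4656 and 6927 TPM in mice 1 to 4, and alpha myosin heavy chain (Myh6) with 3876, 3645, 3468 and 3874 TPM. The next were the ventricular light chain Myl2 (3147 ± 86.4), the fatty acid binding protein Fabp3 (2573 ± 88.8), the SERCA inhibitor Pln (2263 ± 142) and Atp2a2 (2089 ± 204). Troponin C (Tnnc1, 1800 ± 108 TPM), troponin I (Tnni3, 1658 ± 94.4) and Myl3 (1647 ± 31.7), the ATP and ADP exchanger Slc25a4 (1595 ± 62.5) and the oxidase subunit Cox6a2 (1530 ± 18.3) completed the protein-coding genes above 1500 TPM. Mitochondrial creatine kinase (Ckmt2, 1181), the titin cap Tcap (1111) and the small heat shock proteins Cryab (921) and Hspb7 (805) were also among the 25 highest. Contraction, calcium return, fatty acid supply and ATP production were thus all represented at the top, and 31 protein-coding nuclear and mitochondrial genes exceeded 1000 TPM.

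Metabolic genes below that tier were also high. In fatty acid use, the lipase Lpl, which frees fatty acids at the vessel wall, was at 627 ± 53.3 TPM, the transporter Cd36 at 445 ± 32.1, and the long-chain dehydrogenase Acadl at 525. In the TCA cycle Mdh1 (629 ± 20.2 TPM) and Idh2 (623 ± 21.1) led, and of 23 genes the lowest was Pdhx with 34.3 TPM. Oxct1, a key enzyme of ketone use, was at 359 ± 16.1 TPM. Aldoa (643 ± 37.6 TPM) and Ldhb (629 ± 13.5) were the highest glycolytic genes, and Gapdh was at 48.6 ± 3.20 TPM.

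Regulatory and structural genes of other kinds were lower. Among cardiac transcription factors the highest were the coactivator Ppargc1a (40.9 ± 9.98 TPM) and Hand2 (39.9 ± 10.5), followed by Mef2d (29.6), Gata4 (21.4) and Nkx2-5 (20.4), and Tbx5 was at 5.27 ± 1.37. The matrix was led by Sparc (77.3 ± 13.1 TPM) and Dcn (68.2 ± 3.91), with basement membrane collagen Col4a1 (38.1 ± 6.39) above the fibrillar collagens Col3a1 (9.32 ± 0.917) and Col1a1 (7.88 ± 0.288). The matricellular protein periostin (Postn), low in healthy hearts, was at 3.44 ± 0.184 TPM. Antioxidant genes were led by the mitochondrial peroxiredoxin Prdx3 at 152 ± 3.68 TPM. Of the major histocompatibility genes, class I H2-D1 was at 50.5 TPM and class II H2-Ab1 at 8.34, and interferon-stimulated genes were led by Bst2 at 11.99 TPM.

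Some of the highest levels carry a limit of annotation. Of the exonic bases of Pln 64.7% lie inside exons of another annotated gene, and of Mb 31.9%. Fabp3 shares 37.3% of its windows with another gene, Fabp3-ps1, a pseudogene that was itself listed at 1515 TPM. Processed pseudogenes as a class held 1.37% ± 0.0265 of all counts, against 0.563% for the glycolytic list and 0.533% for ribosomal protein genes. The part of these overlaps and pseudogenes in the levels, those of Gapdh and the ribosomal protein genes included, was not tested. Actc1 and Tnnc1 have no overlapping exon and no shared window.

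The promoter of Actc1 is shown because it was the most abundant contractile gene per length. The window runs from 250 bases before to 50 after the RefSeq start site on GRCm38.p6, chr2:114052826-114053125, minus strand. Capitals mark a CArG box, the binding motif of serum response factor (SRF), 47 bases before the start site:
Actc1: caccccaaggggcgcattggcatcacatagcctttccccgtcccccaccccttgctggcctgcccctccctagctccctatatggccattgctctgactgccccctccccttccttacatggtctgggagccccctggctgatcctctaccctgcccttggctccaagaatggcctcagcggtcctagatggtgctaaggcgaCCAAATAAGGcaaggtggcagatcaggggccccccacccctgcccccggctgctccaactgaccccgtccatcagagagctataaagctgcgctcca
A CArG box on either strand was present in the windows of 7 of 22 sarcomere genes with an entry, against 1.81% of all 27025 genes in the table. The match is a description of the letters and not of binding. Srf itself was at 24.8 ± 3.70 TPM and its coactivator Myocd at 10.4 ± 1.35 TPM.

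Gene families differed in how far a single member filled them. Of 50 families with 179 listed members, the leading gene held over 90% of the summed TPM in 25 and a smaller share in the other 25, and the same gene led in all 4 mice in 49. Altogether 142 members were detected and 21 were at 0 in all 4 mice. The families are taken below in the order of contraction, calcium, energy and signalling.

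Among the myosin heavy chains, the fast alpha form Myh6 held 87.7%, 87.6%, 87.3% and 87.8% of the family in mice 1 to 4. The slow beta form Myh7, which predominates in the mouse heart before birth, held 11.9% ± 0.247, a mean of 504 ± 18.9 TPM. The other 6 members together held under 1%, and 4 of them were at 0 in every mouse. The split between Myh6 and Myh7 was nearly the same in the 4 hearts, although 20.2% of the windows of Myh6 occur also in another gene, with Myh7 the main partner.

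The thin filament was as strongly assigned. Actc1 held 95.3% of actin TPM, and Acta1, the skeletal form that is also expressed in the fetal heart, held 1.82% ± 0.304 with 106 TPM on average. Cytoplasmic Actb reached 84.7 TPM. Tnnt2 held 99.2% of troponin T, Tnni3 99.97% of troponin I, with the fetal form Tnni1 at 0 counts in all 4 mice, and Tnnc1 100% of troponin C at this precision. Tpm1 held 95.5% of tropomyosin, and the regulatory and essential light chains were Myl2 (99.6%) and Myl3 (97.8%). Mybpc3 held 99.6% of myosin-binding protein C. In each of these families the same gene led in all 4 mice.

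In calcium handling, Atp2a2 held 99.9% of the SERCA pumps and Ryr2 99.8% of the ryanodine receptors. Pln held 97.3% of the small membrane proteins that regulate SERCA. The activator DWORF, annotated as Gm34302, held 2.74%, and sarcolipin (Sln), an inhibitor of atrial muscle, was at 0 counts in every mouse. Cacna1c, the L-type calcium channel, held 75.9% of the alpha 1 subunits measured, with the skeletal form Cacna1s at 11.3% and 2.46 TPM. Gja1 (connexin 43) held 80.6% of the connexins.

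Fuel genes were less exclusive. Muscle forms led for enolase (Eno3, 97.1%), phosphoglycerate mutase (Pgam2, 96.2%), phosphofructokinase (Pfkm, 93.2%), the insulin-responsive glucose transporter (Slc2a4, 95.7%) and carnitine palmitoyltransferase (Cpt1b, 96.7%), which admits fatty acids to the mitochondrion. Hexokinase was divided, with Hk2 at 68.7% and Hk1 at 21.1%, and glycogen phosphorylase likewise, with Pygm at 68.2% and the brain form Pygb at 31.7%. Mitochondrial Ckmt2 held 70.3% of creatine kinase TPM and cytosolic Ckm 29.2%. Ldhb, the subunit that favours lactate use, held 85.4% of lactate dehydrogenase. Pdk2 held 63.8% and Pdk4, which is induced by fatty acids and fasting, 26.3% of the pyruvate dehydrogenase kinases.

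Mitochondrial and translation genes also showed muscle paralogs. The muscle forms Cox6a2 (95.8%), Cox8b (91.1%) and Cox7a1 (74.9%) led their oxidase subunits, while the ubiquitous Cox7a2 kept 25.1% of its pair. Slc25a4 held 95.3% of the adenine nucleotide translocases. Among translation genes, Rpl3l, a striated muscle version of the ribosomal protein RPL3, held 87.2% and Rpl3 itself 12.8%, and the muscle and neuron elongation factor Eef1a2 held 82.3%. Of the windows of Rpl3 35.0% occur in another annotated gene, whereas Rpl3l shares none.

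Several families of regulators were divided among their members. Ppara led the PPAR receptors with 57.0% and 11.7 TPM over Pparg (4.53 TPM) and Ppard (4.32 TPM), and Esrra the estrogen-related receptors with 61.2%. Gata4 held 64.1% of GATA factor TPM and Gata6 25.5%. Mef2d led the MEF2 factors with 60.1%, but with the length of the longest transcript in place of all exons it fell behind Mef2a and held 39.0%. Adrb1 held 77.5% ± 7.1 of the beta adrenergic receptors and Adcy6 64.5% of the adenylyl cyclases. Other regulators were less divided, with Ppargc1a at 89.2% of the PGC-1 coactivators and Thra at 84.4% of the thyroid hormone receptors, and the structural caveolins (Cav1, 61.9%) and filamins (Flnc, 62.1%) were about as even as the GATA factors.

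A single family changed its leader among mice. Natriuretic peptides are hormones released by stretched myocardium. Nppb (BNP) was at 25.8, 65.6, 56.8 and 139 CPM in mice 1 to 4, and Nppa (ANP) at 40.6, 91.7, 62.1 and 39.8 CPM. Nppb accordingly held 41.3%, 44.2%, 50.3% and 79.4% of the family TPM. Nppa led in mice 1 and 2 and Nppb in mice 3 and 4, and Nppc was at 0 in all of them. Without mouse 4 the mean share of Nppb was 45.3%. Of the exonic bases of Nppa 61.5% lie inside exons of other genes, while Nppb has no overlap.

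**Figure D2:**
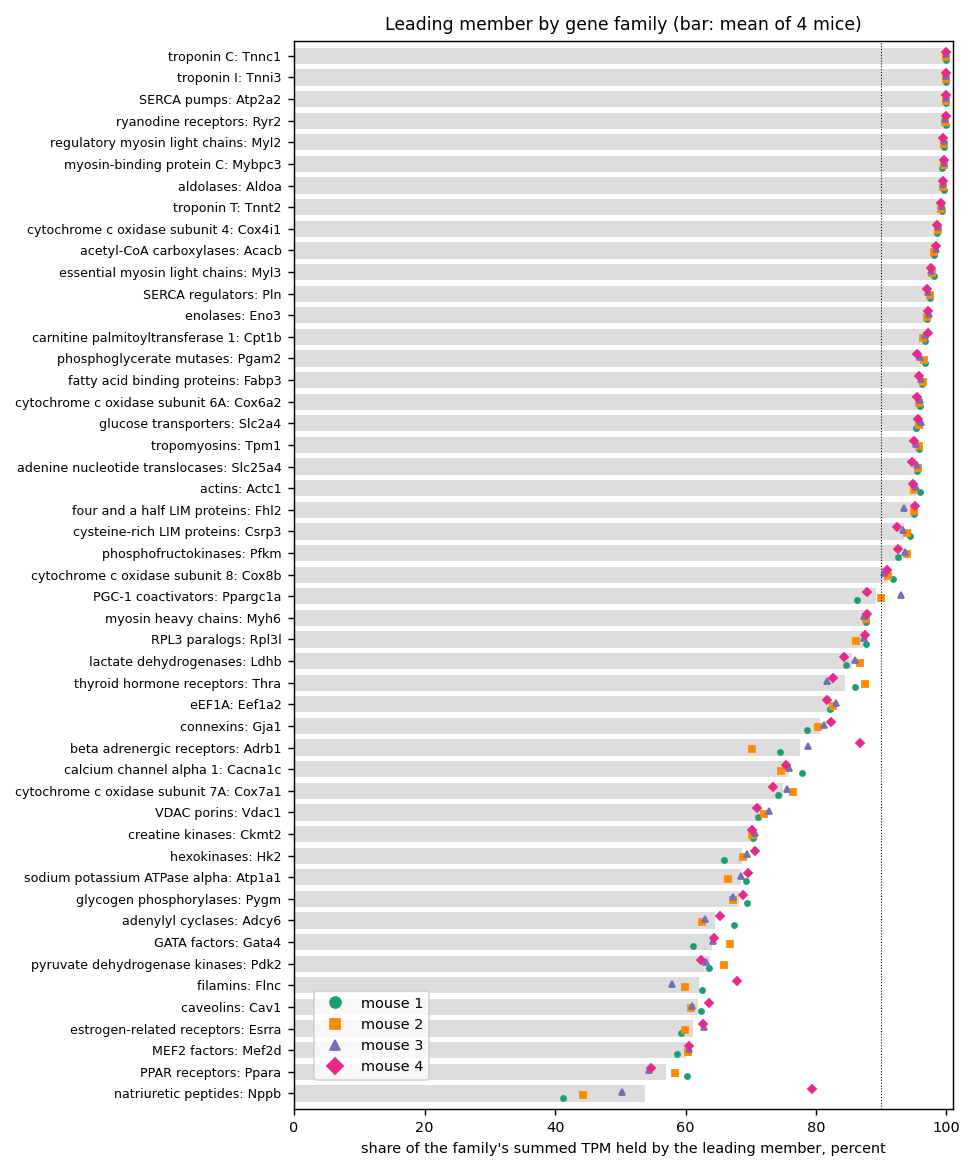
Share of the family's summed TPM (percent) held by the leading member of 49 of the 50 gene families, with a bar for the mean and a point for each mouse. Troponin, SERCA pump and ryanodine receptor families crowd near 100%, while myosin heavy chains (Myh6) are at 87.6% and calcium channels (Cacna1c) at 75.9%. The PPAR, MEF2 and GATA families lie lower, and the natriuretic peptides spread from 41.3% to 79.4% for Nppb.

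Marker genes of ventricular cardiomyocytes dominated those of all other cells. The 12 markers summed to 25568, 25611, 24370 and 26810 TPM in mice 1 to 4, or 91.1% ± 0.929 of the TPM of 21 marker lists, and all 12 were detected in every mouse. In bulk tissue, fewer cells of a type and less RNA per cell cannot be told apart, so these sums are levels of RNA and not cell numbers. The atrial light chain Myl7 and Sln were at 0 in all 4 mice, and nearly all of the atrial list's 63.7 to 143 TPM came from Nppa. Skeletal muscle markers summed to 0.92 TPM, with 6 of 10 at 0. The labelled tissue, heart apex, thus had the 12 listed cardiomyocyte markers at high level and those of the skeletal muscle list near 0. Of the atrial list Nppa, which ventricles can also express, was the exception to low levels.

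Stromal and vascular markers were lower. Fibroblast markers summed to 412 ± 25 TPM with 10 of 10 detected, of which Gsn, an actin-severing protein that is not exclusive to fibroblasts, gave 251. Blood endothelium summed to 309 ± 24.7 TPM with 11 of 11 detected, led by the lipid binding protein Fabp4 at 98.8. Pericyte markers reached 243 ± 16 TPM, of which Rgs5 gave 142, and macrophage markers 169 ± 9.4 TPM with lysozyme (Lyz2) at 56.4. In these lists 0 of 10, 0 of 11, 0 of 8 and 0 of 10 genes that passed the low-count filter had a highest mouse at 2-fold or more over the lowest, against 4.22% of all genes, a background so low that 0 says little about lists of this length. Lymphatic endothelium was detected with 6 of 6 markers at 27.5 TPM in sum.

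Rarer cell types left few reads. Conduction markers summed to 4.63 TPM, neutrophil markers to 3.89 and mast cell markers to 3.37. T cell markers reached 0.57 TPM and B cell markers 0.27, and natural killer markers were at 0. The Cidea transcript, shared between brown fat and heart, was at 17.6 TPM while Ucp1, the defining brown fat gene, was at 0. Adipoq, a white fat gene, had 5 counts and Sftpc, a lung epithelial gene, 12 counts, both in mouse 1 alone. Of the 5 epicardial and mesothelial markers, Wt1 had 107, 148, 127 and 168 counts in mice 1 to 4. The other 4 were low and highest in mouse 2, with 41 counts for Msln, 36 for Upk3b, 27 for Lrrn4 and 10 for Upk1b there and at most 7 in any other mouse. The part of these reads in other values was not tested.

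**Figure D3:**
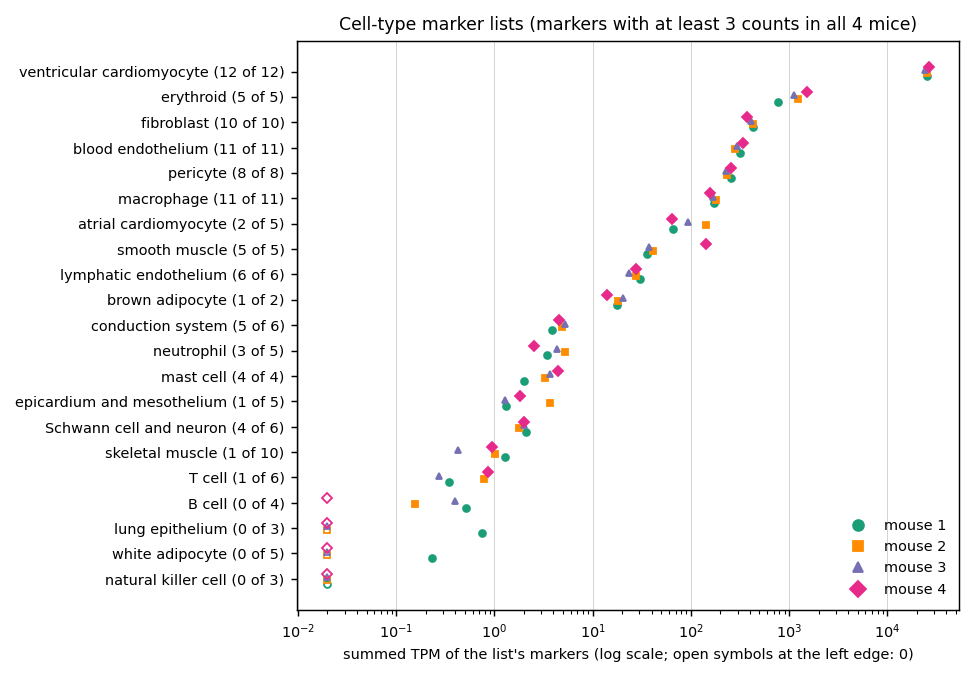
Summed TPM (log axis) of each cell-type marker list in each of the 4 mice. Ventricular cardiomyocyte markers lie between 24370 and 26810, the mean of the fibroblast list is 412 and that of the macrophage list 169, and smooth muscle shows mouse 4 apart at 142.9. Open symbols at the left edge stand for 0.

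Among long noncoding RNAs, the highest counts belonged to Neat1, the scaffold of nuclear paraspeckles. It was at 829 CPM in mouse 1, 613 in mouse 2, 557 in mouse 3 and 376.7 in mouse 4, with mouse 1 at 2.20 times the level of mouse 4. Malat1, another nuclear RNA, was at 169, 156, 132 and 200 CPM, so the mouse lowest for Neat1 was highest for Malat1. The lincRNA 1700020I14Rik (294 CPM on average), the Myh7 antisense RNA Mhrt (166 CPM) and Gm10874 (128 CPM) completed the 5 with the most counts. Per length Mhrt was the highest of these at 186 ± 18.3 TPM, but 39.9% of its exonic bases lie inside exons of other genes.

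Cardinal, listed as Gm12295, was a low transcript in these control hearts. It had 104, 100, 121 and 70 counts in mice 1 to 4, which is 4.69, 4.59, 5.67 and 3.27 CPM or 1.73 TPM on average. It has no overlapping exon and no shared window. Genes for its reported partner, the GTP-binding protein DRG1, and for the DRG1-stabilizing protein Zc3h15 were at 8.65 ± 0.561 and 10.3 ± 0.561 TPM, and Drg2 at 7.15 ± 0.423 TPM. All 3 exceeded Cardinal per length in their means.

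Most genes were nearly constant among the 4 mice. A gene was said to span 2-fold when its highest log2 CPM exceeded its lowest by at least 1, and 638 of 15123 genes that passed edgeR's low-count filter did so, 4.22% of them. The median SD of log2 CPM was 0.13. Among the 7325 genes that averaged 10 CPM or more, 126 (1.72%) spanned 2-fold and 30 spanned 4-fold, while 65.6% stayed within 1.2-fold. The biological coefficient of variation that edgeR estimated over all genes was 10.8%. Of the 126 genes, 71 were lowest in mouse 1, against 27.5% of all genes that passed the filter. In mouse 4, 68 of the 126 were highest, against 27.6%. Without mouse 1 the count of 638 was 357 and without mouse 4 it was 359, against 525 without mouse 2 and 494 without mouse 3, so both outer mice contributed to it.

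**Figure D4:**
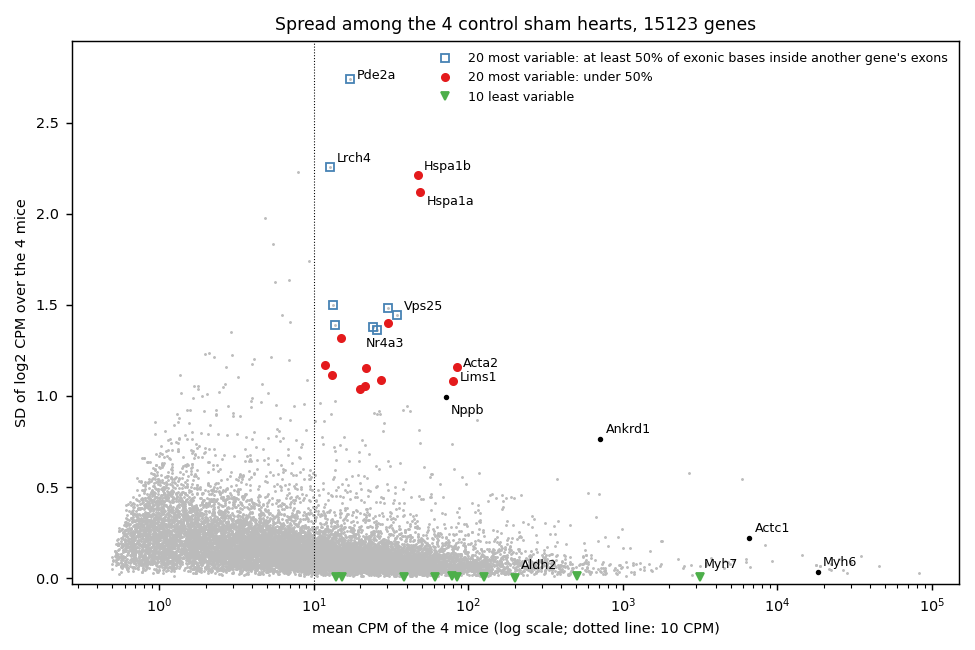
SD of log2 CPM over the 4 mice against mean CPM (log axis), a point for each gene that passed the low-count filter, with named genes marked. Open squares are variable genes whose exons lie largely inside those of another gene, filled circles the other variable genes and triangles the 10 least variable. Most genes of at least 10 CPM lie near 0.09, and Pde2a, Lrch4, Hspa1b and Hspa1a lie above 2.

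Of the 20 most variable genes, 8 have 50% or more of their exonic bases inside exons of another gene, compared with 1.61% of the 7325 genes. For these 8, one gene was low in the mice where its partner was high, and the sum of both was steadier, with an SD of log2 CPM between 0.07 and 0.27. Pde2a, a phosphodiesterase, was at 0.993, 1.38, 32.6 and 34.3 CPM in mice 1 to 4, the largest spread of all with an SD of 2.74. Its overlapping partner Gm45837, a gene model on the same strand, was at 37.8, 43.6, 6.46 and 9.67 CPM. Added together they were 38.8, 44.9, 39.1 and 44.0 CPM. Mice 1 and 2 were low for Pde2a and high for its partner, and mice 3 and 4 the reverse.

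Other overlapping genes traded in the same way. Vps25, of the endosomal ESCRT machinery, was at 47.0, 5.91, 44.8 and 41.3 CPM, and its overlapping neighbour Ramp2 at 26.6, 63.9, 28.5 and 25.0 CPM, with an SD of 0.07 for the sum. Lrch4 was at 19.3, 12.8, 18.3 and 0.654 CPM, an SD of 2.25 that was 0.32 without mouse 4, and the sum with Gm20605 had an SD of 0.08. Gm42417 (8.19 to 85.9 CPM) lies wholly within exons of other genes, mainly Ankrd23. Its SD of 1.48 was 0.43 without mouse 4, and the sum with Ankrd23 had an SD of 0.12. Adnp and Dpm1 both overlap Gm20716, which was at 42.0, 58.6, 0 and 9.06 CPM. Here the sums were less steady, with an SD of 0.27 for Adnp with Gm20716 and 0.46 for Dpm1 with Gm20716. Alone the SDs were 1.36 and 1.04. How reads in overlapping exons were assigned is not given in the sources used here, and its part in these values was not tested. Among genes with under 10% overlap 3.39% spanned 2-fold, and among those with more 195 of 2053 did.

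Other variable genes had little or no overlap. Lims1, the focal adhesion protein PINCH1, was at 93.3, 92.9, 22.2 and 111 CPM, low in mouse 3 alone. Rora, a nuclear receptor of the clock, was at 27.7, 27.6, 26.7 and 5.47 CPM, low in mouse 4 alone, and its SD of 1.15 was 0.03 without that mouse. Repin1 was low in mouse 2 alone with 3.44 CPM against 14.7 to 17.3. Fgf2 was at 3.00 CPM in mouse 3 and 16.9 to 21.8 in the others, with 13.2% of its exonic bases overlapped. Irs2, which relays the insulin signal, was at 9.07, 24.0, 10.3 and 42.7 CPM. Each of the first 4 was set apart by a single low library, while Irs2 was spread over the mice.

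Heat shock genes, which encode chaperones that refold damaged proteins, had the highest share of genes that spanned 2-fold among the lists with 10 or more genes past the low-count filter. Hspa1a was at 4.06, 16.9, 32.6 and 143 CPM in mice 1 to 4, and Hspa1b at 3.29, 16.7, 34.9 and 134 CPM. With the prior count of 2, mouse 4 exceeded mouse 1 by 34.4-fold and 39.5-fold for these inducible HSP70 genes, which share 66.3% and 62.3% of their windows with other genes, mainly each other. Hsph1, the large cochaperone HSP110, was at 39.8, 68.8, 98.2 and 180 CPM. Hsp90aa1, the inducible HSP90, was at 50.5, 79.0, 116 and 208 CPM. It shares 47.5% of its windows with other genes, mainly the pseudogene Gm12346, which was at 15.7, 24.9, 39.9 and 70.5 CPM. The HSP40 gene Dnajb1 was at 11.5, 19.6, 25.0 and 51.8 CPM. For all 5 heat shock genes the mice had the same order, with mouse 1 lowest and mouse 4 highest.

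Over the list, 8 of 16 heat shock genes spanned 2-fold, against 4.22% of all genes, and 6 did so without mouse 1 and also without mouse 4. The median SD was 0.41. Mouse 4 was highest in 14 genes and mouse 1 lowest in 12, and both held in 11 of 16, against 10.9% of all genes. Constitutive members followed in smaller measure. Hspa8 was at 460, 634, 713 and 1001 CPM and Hsp90ab1 at 785, 940, 1003 and 1240 CPM. The muscle chaperones Cryab and Hspb7 had other orders, with 960, 1020, 870 and 1144 CPM and 1692, 1640, 1666 and 1550 CPM. The list's share of all counts was 0.526%, 0.572%, 0.582% and 0.723%.

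Promoter windows of 3 of the inducible genes are shown because the heat shock genes moved together across mice. The letters GAANNTTC, the core of the heat shock element that binds HSF1 and identical when read on either strand, are in capitals. The windows are those of the RefSeq table on GRCm38.p6, Hspa1a at chr17:34972107-34972406 (minus strand), Hsph1 at chr5:149636287-149636586 (minus strand) and Hspb1 at chr5:135887669-135887968 (plus strand):
Hspa1a: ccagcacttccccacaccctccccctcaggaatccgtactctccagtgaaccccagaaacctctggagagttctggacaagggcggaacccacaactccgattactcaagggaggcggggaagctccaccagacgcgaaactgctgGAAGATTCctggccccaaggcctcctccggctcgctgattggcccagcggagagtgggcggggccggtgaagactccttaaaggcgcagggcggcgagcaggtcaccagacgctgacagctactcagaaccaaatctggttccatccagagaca
Hsph1: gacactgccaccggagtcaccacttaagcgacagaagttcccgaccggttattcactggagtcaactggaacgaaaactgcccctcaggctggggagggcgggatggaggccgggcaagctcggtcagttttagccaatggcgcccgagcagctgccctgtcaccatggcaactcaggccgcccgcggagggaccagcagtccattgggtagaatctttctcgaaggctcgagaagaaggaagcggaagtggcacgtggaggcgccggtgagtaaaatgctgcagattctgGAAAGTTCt
Hspb1: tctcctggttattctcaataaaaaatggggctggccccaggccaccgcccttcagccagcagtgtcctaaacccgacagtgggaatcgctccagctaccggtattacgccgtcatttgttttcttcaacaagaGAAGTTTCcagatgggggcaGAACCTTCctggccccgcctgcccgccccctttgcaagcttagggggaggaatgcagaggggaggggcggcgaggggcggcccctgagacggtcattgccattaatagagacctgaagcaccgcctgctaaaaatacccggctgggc
The match lay 104 bases before the start site in Hspa1a and 41 bases after it in Hsph1, and Hspb1 had matches 117 and 97 bases before it. The window of Hspa1b was identical to that of Hspa1a at 296 of 300 positions. A match was present in 9 of the 12 heat shock genes with an entry, against 9.04% of all 27025 genes. It was present in 5 of the 6 with an entry that spanned 2-fold and in 4 of the 6 that did not, and Dnajb1 was the one of the former without it. Hspb1, a small heat shock protein, was at 63.6, 84.0, 89.9 and 150 CPM in mice 1 to 4.

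**Figure D5:**
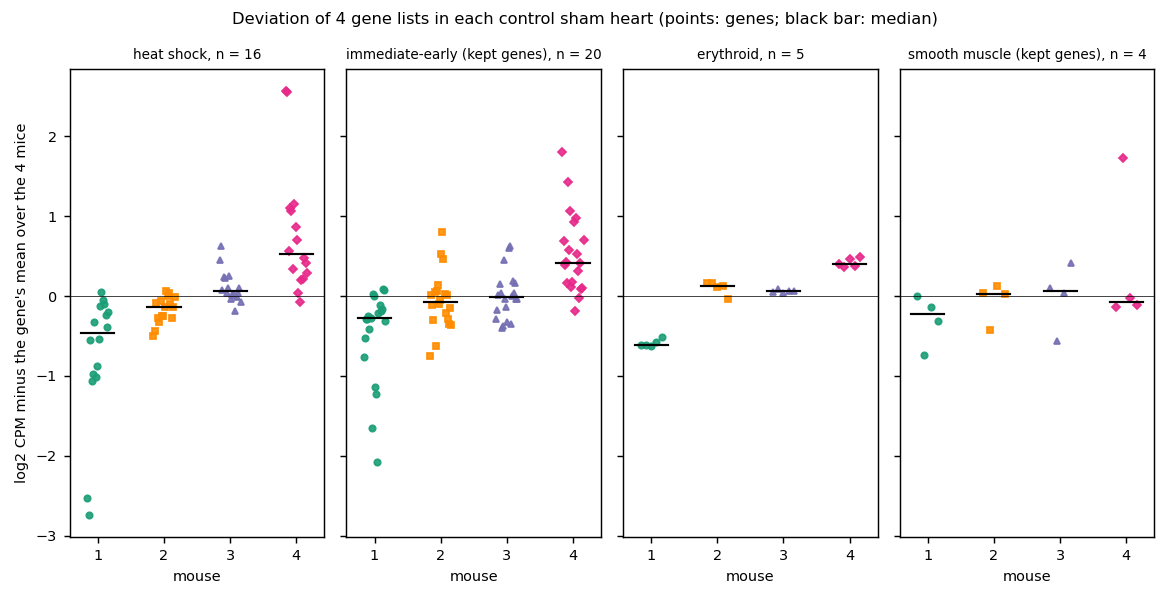
Deviation of each gene of 4 lists in each mouse from the gene's mean over the 4 mice, in log2 CPM, with a point for each gene that passed the low-count filter and a bar for the median. The median of heat shock genes is -0.46 in mouse 1 and 0.52 in mouse 4, that of immediate-early genes -0.28 and 0.42 and that of erythroid genes -0.61 and 0.40. In the smooth muscle list a single gene, Acta2, stands high in mouse 4.

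Immediate-early genes, which encode transcription factors and feedback regulators induced within minutes of a stimulus, also varied. Of 22 listed, 20 passed the low-count filter and 8 of these spanned 2-fold, against 4.22% of all genes. Without mouse 1 the count was 4, and without mouse 4 it was also 4. Nr4a3, an orphan nuclear receptor, was at 5.55, 32.7, 36.6 and 46.8 CPM, and Atf3, a stress-induced factor, at 3.02, 10.7, 13.3 and 20.5 CPM. For both, mouse 1 stood below the other 3, and without it the SD fell from 1.40 to 0.26 for Nr4a3 and from 1.17 to 0.47 for Atf3. Fos was at 1.22, 1.24, 1.73 and 7.71 CPM and Egr1 at 6.77, 5.82, 6.84 and 24.6 CPM, with mouse 4 alone above. Mouse 4 was the highest for 17 of the 20 genes, against 27.6% of all genes. Jun and Junb stayed within 2-fold, at 28.7 to 45.9 and 7.11 to 11.8 CPM.

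Erythroid transcripts showed the same pair of outer mice. Hbb-bs, adult beta globin, was at 104, 174, 165 and 222 CPM, and Hba-a1, alpha globin, at 111, 191, 177 and 226 CPM. The summed TPM of the 5 genes was 769, 1233, 1129 and 1508. All 5, including the heme synthesis enzyme Alas2, were lowest in mouse 1 and highest in mouse 4, against 10.9% of all genes. Of the 5, 3 spanned 2-fold, against 4.22% of all genes. None did so without mouse 1 or without mouse 4. The alpha and beta globin pairs share 53.2% to 89.3% of their windows with other genes, mainly their own partner. Whether this level had a part in the order of the other groups was not tested.

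Smooth muscle actin set mouse 4 apart without the rest of its list. Acta2 was at 37.9, 46.9, 42.6 and 209.5 CPM in mice 1 to 4, an SD of 1.16 that was 0.15 without mouse 4. The contractile smooth muscle genes Myh11 (19.4, 19.9, 20.7 and 17.6 CPM) and Tagln (9.79, 11.8, 11.1 and 10.6 CPM) did not separate that mouse. The stretch-responsive genes Ccn2 (43.7, 48.6, 49.6 and 86.7 CPM) and Ccn1 (29.3, 28.4, 35.6 and 59.2 CPM) were highest in mouse 4 as well. Fibroblast markers were lowest in mouse 4 in 6 of 10 genes, against 27.7% of all genes, and highest there in 0. Of the list of collagens and other matrix genes, 10 of 18 were highest in mouse 4, against 27.6%. Col1a1, Col1a2, Col3a1, Dcn and Lum are in both lists, so none of these was among the 10.

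Other stress and growth markers had their own orders. Ankrd1, a titin-associated stretch-responsive protein, was at 362, 953, 1082 and 476 CPM, high in mice 2 and 3. It spanned 2-fold together with Nppa and Nppb, 3 of 10 genes listed as hypertrophy markers, against 4.22% of all genes. Ppargc1a (PGC-1 alpha), the coactivator of mitochondrial biogenesis, was at 125, 212, 252 and 209 CPM, low in mouse 1. The proliferation genes Mki67 (2.17, 3.81, 2.62 and 5.37 CPM) and Top2a (1.04 to 1.83 in mice 1 to 3 and 3.27 CPM in mouse 4) were highest in mouse 4. Of 12 cell cycle genes listed, 5 passed the filter and 4 of these spanned 2-fold, against 4.22% of all genes. Without mouse 4 that count was 1. At these low levels counting noise is a larger part of the spread, so 4.22% is not a matched background for them. Among all genes the share that spanned 2-fold was 19.7% with no filter and 1.88% with a minimum count of 50.

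Genes of the core programs of the heart stayed within 2-fold. None of 25 sarcomere genes, 17 calcium handling genes, 22 fatty acid genes, 23 TCA cycle genes, 15 glycolytic genes, 83 nuclear respiratory chain genes and 81 ribosomal protein genes that passed the filter spanned 2-fold. The share was 4.22% of all genes and 1.72% of those of at least 10 CPM, so that for the shorter lists a count of 0 is near the background. Median SDs of log2 CPM were 0.04 for the TCA cycle, 0.05 for ribosomal proteins, 0.06 for the respiratory chain, 0.07 for fatty acid oxidation and for glycolysis, 0.08 for the sarcomere and 0.09 for calcium handling. The median of all genes of at least 10 CPM was also 0.09, and that of all genes 0.13. Of the 83 respiratory chain genes 42 were lowest in mouse 1 and 48 highest in mouse 3, where 27.5% and 24.7% of all genes were. The 16 listed clock genes, whose levels follow the time of day and which do not include Rora, also had 0, with a median SD of 0.20. Dbp, a clock output gene, was at 103, 84.8, 74.7 and 71.3 CPM and Per2, a core repressor, at 47.2, 49.9, 54.4 and 63.9 CPM. Interferon-stimulated genes had 0 of 20 and antigen presentation genes 0 of 11, which for lists of this length is again near the 4.22% of all genes. In the fasting and glucocorticoid list 3 of 19 spanned 2-fold, namely Ucp3, Mt2 and Lcn2, each highest in mouse 1, and without mouse 1 the count was 0.

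The 10 genes with the smallest spread were Aldh2, Anapc5, Atp6ap1, Pttg1ip, Lactb, Myh7, Hypk, Sat1, Etfdh and Mtch2. Aldh2, mitochondrial aldehyde dehydrogenase, was between 199.9 and 200.4 CPM, an SD of 0.0018 on the log2 scale. Myh7 was at 3209, 3165, 3181 and 3189 CPM with an SD of 0.0083. Etfdh, of fatty acid oxidation, was between 502 and 509 CPM, and Anapc5, a subunit of the anaphase-promoting complex, between 126.7 and 127.8 CPM. The counting noise of Aldh2 alone is 1.52% of its level, larger than the spread seen. Of 16 genes often used as references for quantitative PCR, Sdha (1055, 1062, 1063 and 1045 CPM) and Rpl32 (59.8, 61.8, 59.6 and 61.5 CPM) had low spread. Gapdh was at 135, 151, 145 and 158 CPM. Tbp, at 5.43 to 11.6 CPM, was the only one to span 2-fold.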

How the data were processed

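Poly(A)-selected RNA of heart apex was sequenced as single-end 50-base reads. The authors deposited raw counts per Ensembl gene, a column for each of 16 mice, and the 4 columns labelled AAV9-cTNT-GFP and Sham were used. The other 12 were not, and 0 columns lacked a sample. The submitters' processing notes name GRCm38, FastQC, HISAT2 2.1.0 and edgeR 3.26.1. The counting program, its annotation, the use of strand and the treatment of reads with several matches are not given in the sources used here. Whether all 4 mice were handled together is not given either.

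IDs were matched to GENCODE M21 on GRCm38 (55480 of 55573). Unmatched IDs held 0.000415% of the counts. TPM were counts over the union of a gene's exons. CPM used TMM factors in edgeR 4.0.16 (R 4.3.3). The spread was the SD and range of log2 CPM (prior count 2) among genes that passed filterByExpr with a minimum count of 10 on the 4 mice. Shared sequence was measured as the percent of 50-base windows of a gene's transcripts found in another gene's. The step that ranks genes by spread was tested on simulated data. Python 3.11.15 served for tables and plots (matplotlib 3.10.9, numba 0.67.0, numpy 2.4.6 and pandas 2.3.3). Promoters came from the RefSeq table for GRCm38.p6.

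No groups were compared and no p-value was computed. A chi-square per gene compared the libraries with counting noise, and Dixon's criterion marked single libraries far from the rest. Named were the 25 genes with the highest share of counts, the 25 nuclear genes with the highest TPM, members of the gene lists, the 20 most and 10 least variable genes of at least 10 CPM, and the 5 long noncoding genes with the most counts. The gene whose promoter is shown in each set was picked after its values were seen. The mice and lists were chosen with earlier results of these data known. Alternatives were other lengths, filters, denominators, prior counts, DESeq2 1.42.0 size factors, library totals, and each mouse left out. Denominators without nuclear copies, genes without exon overlap, and the settings for the 90% count and the cardiomyocyte percent were added after seeing the data. Values of some genes are not reported here, although they stayed in all counts and sums.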

Additional observations from a re-analysis of the deposited data

Results flagged for a closer look

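Of 135 values with 4 mice that were examined for a single library far from the other 3 (Dixon's criterion), 13 were found. Chance gives about 1 in 20 independent groups, but these values include genes chosen for a large or small spread, lists with few counts and a list together with its leading gene, so the number cannot be read against that rate. Mouse 1 was the library apart in 4, mice 2 and 3 in 2 each, and mouse 4 in 5.

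Mouse 4 was high for Acta2 (209.5 CPM, the others 37.9 to 46.9), for the smooth muscle list that holds it (142.9 TPM, the others 36.1 to 41.4) and for Gm42417 (85.9 CPM, the others 8.19 to 14.3). It was low for Rora (5.47 CPM, the others 26.7 to 27.7) and for the summed markers used as a check of sex (32.9 TPM, the others 38.5 to 39.6).

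Mouse 1 was high for the share of counts on antisense genes (0.114%, the others 0.105% to 0.106%), for white adipocyte markers (0.231 TPM, the others 0) and for lung epithelium markers (0.741 TPM, the others 0). It was low for the share of Mef2d among MEF2 factors (58.7%, the others 60.5% to 60.6%).

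Mouse 2 was low for Vps25 (5.91 CPM, the others 41.3 to 47.0) and high for Sat1 (14.1 CPM, the others 13.9 to 14.0), one of the least variable genes, where the gap is small in size. Mouse 3 was low for Khnyn (7.40 CPM, the others 31.7 to 34.9), which overlaps Sdr39u1, and for the share of Fhl2 among the FHL family of LIM proteins (93.4%, the others 94.98% to 95.2%).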

How the results depend on the processing

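No paired analysis was possible because the results come from 1 group and from no test. The mitochondrial share was 38.6% of counts without the nuclear copies. The sarcomere share was 9.63% without mitochondrial genes and 12.1% without their copies too, and the share of nuclear respiratory chain genes 3.98% and 5.02%. The number of genes that hold 50% of counts was 196.25 and 509.75 in the same settings. The ventricular cardiomyocyte list held 92.7% of marker TPM with the length of the longest transcript. The count of genes that spanned 2-fold was 5220 with no filter and 214 with a minimum count of 50, against 638, and between 357 and 525 with a mouse left out. It was between 636 and 736 with other scaling or prior count, and 443 among genes with little exon overlap. Mef2d held 39.0% of MEF2 TPM with the longest transcript and 37.7% of counts, so that Mef2a led, and Nppb ranged from 45.3% to 58.0% of its family with a mouse left out. With the longest transcript or with counts not divided by length, 71 of the shares of leading family members moved by more than 1 SD, 27 did not, and the 2 of the MEF2 family changed the leader. The cause was not tested. Depth limits transcripts near 0.14 CPM.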
